A study of Homo sapiens with 12 samples.

Results

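The deoxynucleotide synthesis enzymes are the proteins that make, recycle and clear the building blocks of DNA. The 9 genes described here were chosen by name from the 58735 genes of the count table: the ribonucleotide reductase subunits RRM1 and RRM2, the thymidylate branch enzymes TYMS, DUT, DCTD and DTYMK, the salvage kinases TK1 and DCK, and the deoxynucleotide hydrolase SAMHD1. RNA was sequenced from A549, a human line derived from a non-small cell lung cancer, that stably carried a short hairpin RNA. There were 4 groups of 3 libraries: shTRIM22 cells 3 days after ionizing radiation, shTRIM22 cells after sham irradiation, shControl cells 3 days after ionizing radiation, and shControl cells after sham irradiation. Every group thus carried a hairpin construct, aimed at TRIM22, a ubiquitin ligase gene, in the first pair and at no named target in the second. The labels describe 1 stable population per hairpin and call the libraries biological replicates. They give neither the radiation dose nor whether cultures were kept apart. The spread behind each p-value is therefore that of these libraries only and may be partly technical. Knockdown below names the contrast of the shTRIM22 population with the shControl population. Loss of TRIM22 cannot be told apart there from other differences between these populations.

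Ribonucleotide reductase joins the large subunit RRM1 to a small subunit and turns ribonucleoside diphosphates into deoxyribonucleoside diphosphates, the committed step of deoxynucleotide supply. RRM2 is the small subunit of dividing cells, made in S phase and removed as cells leave the cycle, and RRM2B is the small subunit induced by p53. DCTD deaminates dCMP to dUMP, DUT hydrolyses dUTP to dUMP and so keeps uracil out of DNA, TYMS methylates dUMP to dTMP, and DTYMK phosphorylates dTMP. TK1 phosphorylates salvaged thymidine and is a textbook S-phase gene, DCK phosphorylates salvaged deoxycytidine and purine deoxynucleosides, and SAMHD1 cleaves deoxynucleoside triphosphates back to deoxynucleosides.

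Many genes of DNA replication carry an E2F site or a CCAAT box just before their start, so the 250 bases before each RefSeq start (GRCh38.p14) were searched on both strands. The E2F search used the words TTTGGCGC, TTTCCCGC, TTTGCCGC and TTTCGCGC, and the CCAAT search used CCAAT. All 9 genes matched a window, 15 windows in all because some have several starts. E2F words stood before a RefSeq start of TYMS and of DUT, in 2 of 15 windows, against 2.79% of 35116 windows of all genes. CCAAT stood before a RefSeq start of RRM1, RRM2, DTYMK, TK1 and SAMHD1, in 6 of 15 windows, against 32.0% of all windows. The word TTTGAA, the core of the cell cycle homology region, stood in 2 of 15 windows, against 13.3% of all. These are matches of letters and no test of binding was made. RefSeq starts need not be the gene starts of the annotation used for counting. Apart from the RRM1 site, every printed site lies inside the coordinates given below for its gene. Annotated exons covered 240 to 250 of the 250 bases in the RRM2 windows. They covered 193 in the SAMHD1 window and 49 in the TYMS window, against 0 in the RRM1 window. The E2F and CCAAT sites found are printed, written 5′ to 3′ along the gene's strand with the matched word in capitals, where ATTGG and GCGGGAAA are the words read on the other strand.
RRM1 at chr11:4094649-4094669, plus strand: gtccatatCCAATggggccca
RRM2 at chr2:10122318-10122331, plus strand: tCCAATcgctgctc
RRM2 at chr2:10122608-10122628, plus strand: aggcgcagCCAATgggaaggg
RRM2 at chr2:10122638-10122658, plus strand: tggcacagCCAATgggaaggg
RRM2 at chr2:10122665-10122685, plus strand: caccaaagCCAATgggaaggg
TK1 at chr17:78187117-78187137, minus strand: gggcgctgATTGGccccatgg
TK1 at chr17:78187086-78187106, minus strand: ggctcgtgATTGGccagcacg
DTYMK at chr2:241686895-241686915, minus strand: ggccccggCCAATcccttcga
DTYMK at chr2:241686827-241686847, minus strand: gacgccggCCAATgggagctc
SAMHD1 at chr20:36951735-36951764, minus strand: caggaggCCAATaggctgCCAATactcctt
TYMS at chr18:657606-657629, plus strand: ggacggccGCGGGAAAaggcgcgc
DUT at chr15:48332152-48332180, plus strand: ctgGCGGGAAAtttcggtTTTGGCGCgct
Of the 4 RRM2 boxes the last 3 share the run CCAATgggaaggg, which the first lacks, and the DUT stretch holds 2 E2F words.

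The libraries held 14468386 to 17872154 counts, and the counts of the 9 genes ran from 89 to 2032 per library. Levels are given as CPM, counts scaled to an equal library size, after TMM scaling. TRIM22 checked the labels: it averaged 2.00 ± 0.579 CPM in shTRIM22 irradiated cells and 17.6 ± 0.969 CPM in shControl irradiated cells, and 0.308 ± 0.0169 CPM in shTRIM22 sham cells and 2.28 ± 0.538 CPM in shControl sham cells (SD, n = 3 each). The third shTRIM22 sham library stood apart, with 2.67% of its counts from mitochondrial genes against 9.12% to 14.4% in the other 11. Values without it are given for many, not all, of the results that rest on it. KRT8, KRT18 and the A549 enzymes ALDH1A1, NQO1 and AKR1B10 were abundant, KRT19 averaged 0.336 to 1.12 CPM and EPCAM 3.62 to 9.39 CPM by group, and alveolar markers (SFTPA1, SFTPB, SFTPC and NKX2-1) were too low to test. CDH1 (E-cadherin) averaged 72.8 CPM in shTRIM22 irradiated and 44.4 CPM in shTRIM22 sham cells, against 287 CPM in shControl irradiated and 215 CPM in shControl sham cells. Of 9 fibroblast, endothelial and blood markers 3 could be tested, CD3E had no counts, and their summed level was 12.4 to 15.7 CPM in shTRIM22 irradiated libraries, against 4.90 to 6.93 CPM over the other 9. The part of these markers in the results was not tested.

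All 9 genes passed the low-count filter and were tested among 17094 genes with edgeR's quasi-likelihood test, called at a Benjamini-Hochberg adjusted p below 0.05. In bulk RNA, fewer cells making a transcript and less transcript per cell cannot be told apart. Per kilobase of annotated exon, DCTD was the highest of the 9 in shControl sham cells at 23.7 CPM per kilobase, and SAMHD1 the lowest at 1.08. DUT, RRM1, TK1 and DTYMK lay between 11.3 and 15.3 CPM per kilobase there, each overlapping its neighbour in the order. In shTRIM22 sham cells TK1 was first, at 33.1 CPM per kilobase, overlapping DUT at 23.3. RRM2 was last in both irradiated groups, at 1.30 CPM per kilobase in shTRIM22 irradiated cells and 1.41 in shControl irradiated cells, the second of these overlapping SAMHD1. The annotated exons of RRM2 and SAMHD1 sum to 5323 and 11261 bases, which lowers their values on this scale. Across the 4 groups TK1 varied most, by 2.15 on the log2 scale between its highest and lowest group mean, and DCTD least, by 0.18.

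**Figure D1:**
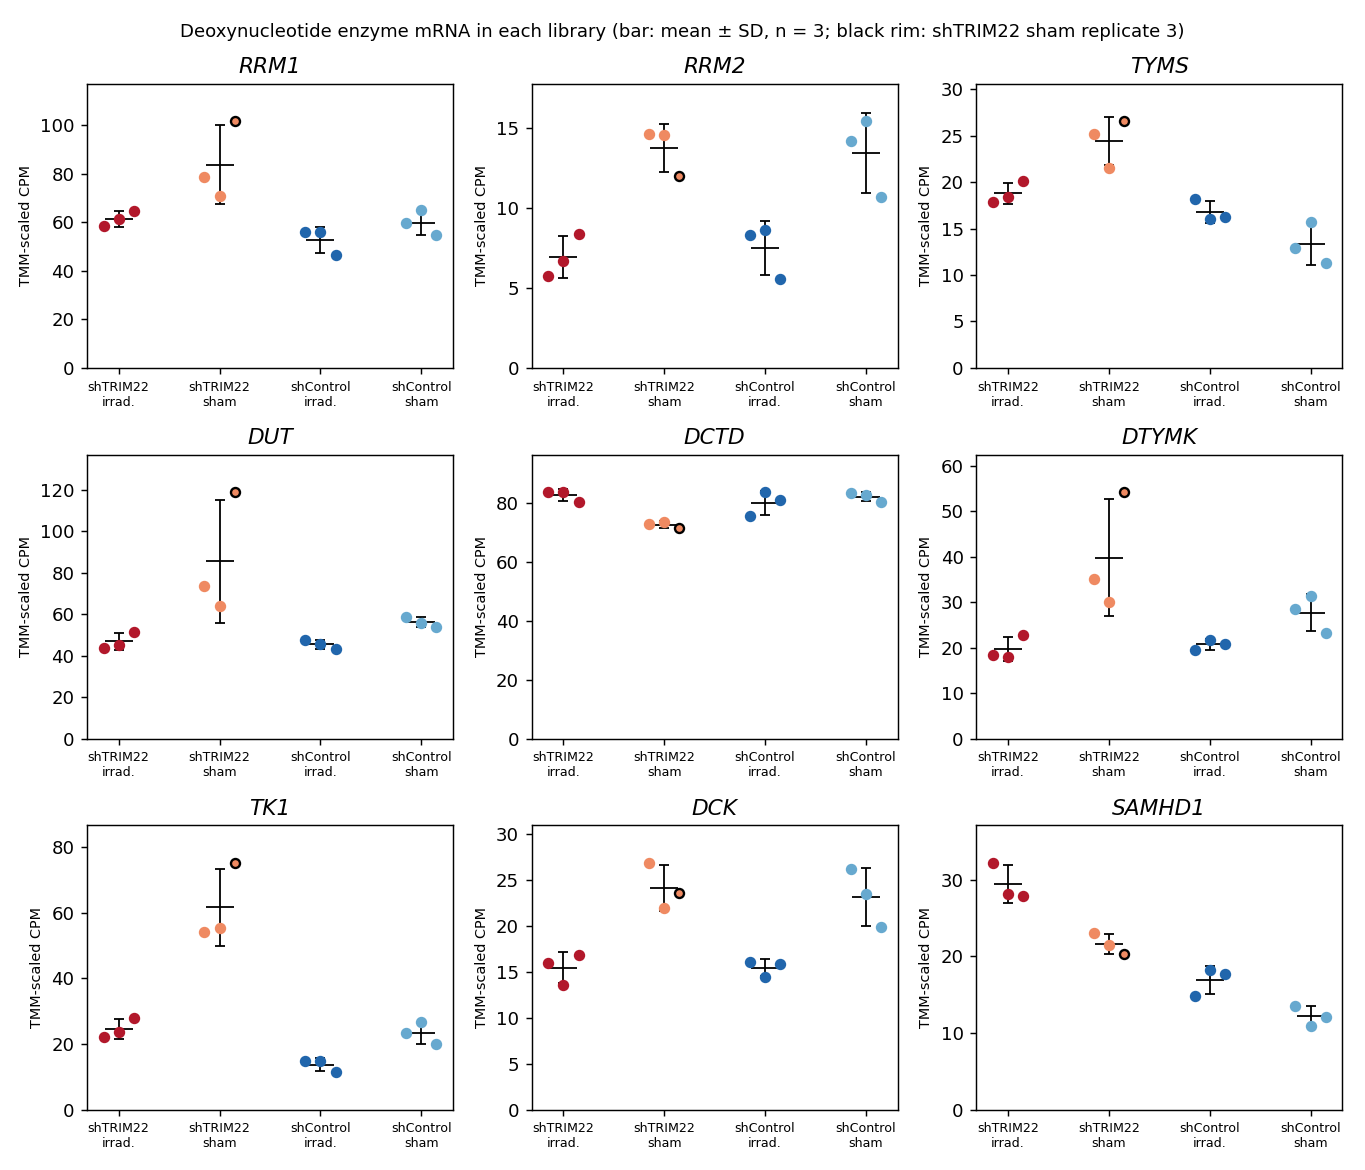
Level of each of the 9 genes in TMM-scaled CPM in every library, by group, with points for libraries, bars for the group mean ± SD (n = 3) and a black rim for shTRIM22 sham replicate 3. TK1 stands highest in shTRIM22 sham cells at 61.6 CPM, SAMHD1 averages 29.4 CPM in shTRIM22 irradiated cells, its highest group, and 12.2 CPM in shControl sham cells, its lowest, and the group means of DCTD lie between 72.7 and 82.7 CPM.

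Irradiation lowered the S-phase reductase subunit and both salvage kinases in shControl cells and raised SAMHD1. RRM2, TK1 and DCK fell and SAMHD1 rose, so 3 of 9 genes were lower, beside 7.53% of all tested genes, and 1 was higher, beside 10.6% (18.2% in either direction). The median log2 fold change was -0.30 for the 9 genes and 0.01 for all genes. RRM1, TYMS, DUT, DCTD and DTYMK did not pass the test. The libraries of 7 of the 9 genes did not overlap between irradiated and sham cells, as was the case for 41.4% of all genes. The count of calls depended on the spread contributed by shTRIM22 sham replicate 3: without that library 2 genes rose and 6 fell, adding TYMS on the higher side and RRM1, DUT and DTYMK on the lower, beside 16.8% and 13.3% of all genes. A fit to the shControl libraries alone likewise called 8 genes.

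In shTRIM22 cells irradiation moved every one of the 9 genes past the test. RRM1, RRM2, TYMS, DUT, DTYMK, TK1 and DCK fell, and DCTD and SAMHD1 rose. All 9 stand beside 27.5% of all tested genes called in either direction. Those 7 lower genes stand beside 14% of all tested genes lower, and the 2 higher beside 13.5% higher. The median log2 fold change of the 9 was -0.65, against 0.00 for all genes. No gene's irradiated and sham libraries overlapped, as for 39.5% of all genes. The smallest of these calls, those of TYMS and DCTD, were each lost without shTRIM22 sham replicate 1, shTRIM22 irradiated replicate 1 or shTRIM22 irradiated replicate 2, and the other 7 held in all 12 fits that left out a library.

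Knockdown without irradiation raised 6 of the 9 genes, namely RRM1, TYMS, DUT, DTYMK, TK1 and SAMHD1, and lowered DCTD. Of all tested genes 25.4% were higher and 22.1% lower in this comparison, 47.5% in all. RRM2 and DCK did not pass the test, with log2 fold changes of 0.03 ± 0.17 and 0.06 ± 0.12 (SE). The median was 0.52 for the 9 genes and 0.02 for all genes, and 6 of 9 did not overlap between the groups, as did 53% of all genes. Without shTRIM22 sham replicate 3 the median was 0.30 and 5 genes rose, DTYMK being the one lost, beside 26.4% of all genes higher.

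After irradiation TK1 and SAMHD1 alone of the 9 were higher in shTRIM22 than in shControl cells, beside 17.6% of all tested genes, and none was lower, by edgeR at an adjusted or unadjusted p below 0.05 or by DESeq2, beside 18% lower of all. The 2 of 9 stand beside 35.6% of all genes called in either direction. The median of the 9 was 0.05, against -0.00 for all genes, and 3 of 9 did not overlap, as did 53.7% of all genes. RRM1, at 0.22 ± 0.12 (SE), passed only without shTRIM22 sham replicate 3 (adjusted p = 0.00912, edgeR) or with the irradiated libraries fitted alone. Each comparison shares its control libraries with another, so their values stand side by side and no overlap between them is drawn.

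**Figure D2:**
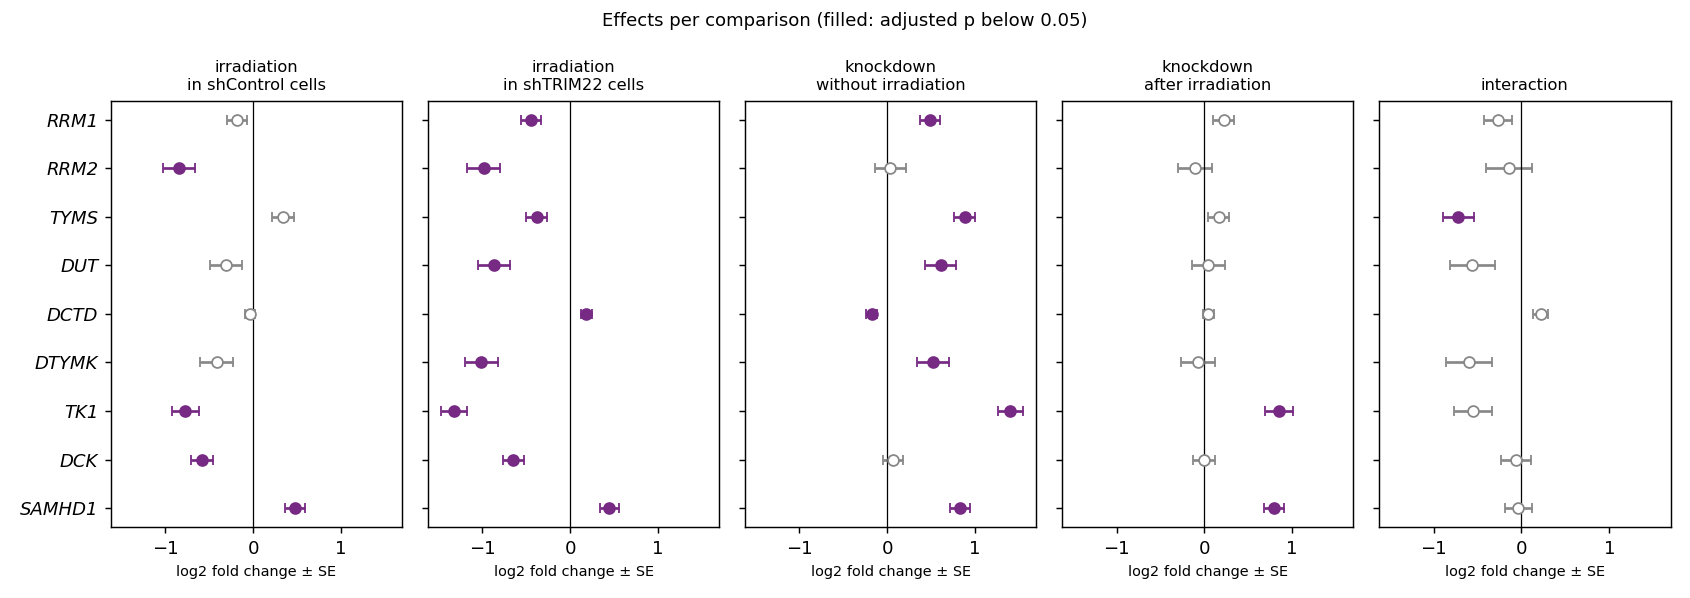
Log2 fold change ± SE of each of the 9 genes (edgeR, 3 libraries per group) for irradiation in each line, for knockdown without and after irradiation, and for the interaction, with filled points for calls at an adjusted p below 0.05. RRM2 and DCK lie at -0.58 or below in both irradiation panels and near 0 in both knockdown panels, SAMHD1 lies above 0 in those 4 panels, and TYMS is the 1 filled point of the interaction.

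RRM1 (ENSG00000167325, chr11:4094707-4138876, plus strand, hg38) encodes the large subunit. It had 58.3, 61.2 and 64.6 CPM in shTRIM22 irradiated cells and 78.7, 70.6 and 102 CPM in shTRIM22 sham cells. In shControl cells it had 56.0, 55.8 and 46.6 CPM after irradiation and 59.6, 65.0 and 54.9 CPM after sham. The shTRIM22 sham libraries were all above the other 9, the third most of all. Irradiation lowered RRM1 in shTRIM22 cells by a log2 fold change of -0.45 ± 0.12 (SE; adjusted p = 0.00931, edgeR), which was -0.29 without the third sham library. In shControl cells the change was -0.18 ± 0.12 (adjusted p = 0.326, edgeR). Knockdown without irradiation raised it by 0.48 ± 0.12 (adjusted p = 0.00271, edgeR), or 0.32 without that library.

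RRM2 (ENSG00000171848, chr2:10120698-10131419, plus strand) had 5.78, 6.69 and 8.36 CPM in shTRIM22 irradiated cells and 14.7, 14.6 and 12.0 CPM in shTRIM22 sham cells. In shControl cells it had 8.35, 8.66 and 5.56 CPM after irradiation and 14.2, 15.5 and 10.7 CPM after sham. The 6 irradiated libraries lay below the 6 sham libraries, whichever hairpin they carried. RRM2 was 1.98-fold lower after irradiation in shTRIM22 cells (log2 fold change -0.99 ± 0.19 SE, adjusted p = 0.000972, edgeR). It was 1.79-fold lower in shControl cells (-0.84 ± 0.18, adjusted p = 0.00423, edgeR), and the difference between these changes was -0.14 ± 0.26 (adjusted p = 0.822, edgeR). After irradiation the knockdown contrast was -0.11 ± 0.20 (adjusted p = 0.709, edgeR). The gene shares 20.2% of its exonic bases with AC007240.1, which had at most 10 counts in any library.

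RRM2B, the p53-inducible small subunit and not one of the 9, moved the opposite way to RRM2 under irradiation. It had 187, 169 and 183 CPM in shTRIM22 irradiated cells and 136, 124 and 117 CPM in shTRIM22 sham cells. In shControl cells it had 173, 167 and 167 CPM after irradiation, against 84.5, 80.4 and 77.8 CPM after sham. Irradiation raised it by 0.51 ± 0.07 on the log2 scale in shTRIM22 cells (adjusted p = 3.74e-05, edgeR) and by 1.06 ± 0.07 in shControl cells (adjusted p = 2.46e-08, edgeR). Knockdown raised it by 0.64 ± 0.07 without irradiation (adjusted p = 8.86e-07, edgeR), while after irradiation the change was 0.08 ± 0.07 (adjusted p = 0.342, edgeR). Protein was not measured. The ratio of RRM2B to RRM2 mRNA per kilobase was 25.4 ± 5.09 in shTRIM22 irradiated cells (SD, n = 3 in each group). It was 8.80 ± 0.612 in shTRIM22 sham cells. In shControl cells it was 22.4 ± 5.57 after irradiation and 5.89 ± 1.01 after sham. The irradiated libraries ran from 18.6 to 31.0 and the sham libraries from 4.98 to 9.36, without overlap. The ratio of RRM1 to RRM2 per kilobase was 11.5 ± 1.51 in shTRIM22 irradiated and 7.93 ± 2.51 in shTRIM22 sham cells, which overlapped through shTRIM22 sham replicate 3 (10.8) alone, the other sham libraries being at 6.83 and 6.17, and 9.15 ± 1.34 in shControl irradiated and 5.75 ± 0.692 in shControl sham cells, which did not.

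**Figure D3:**
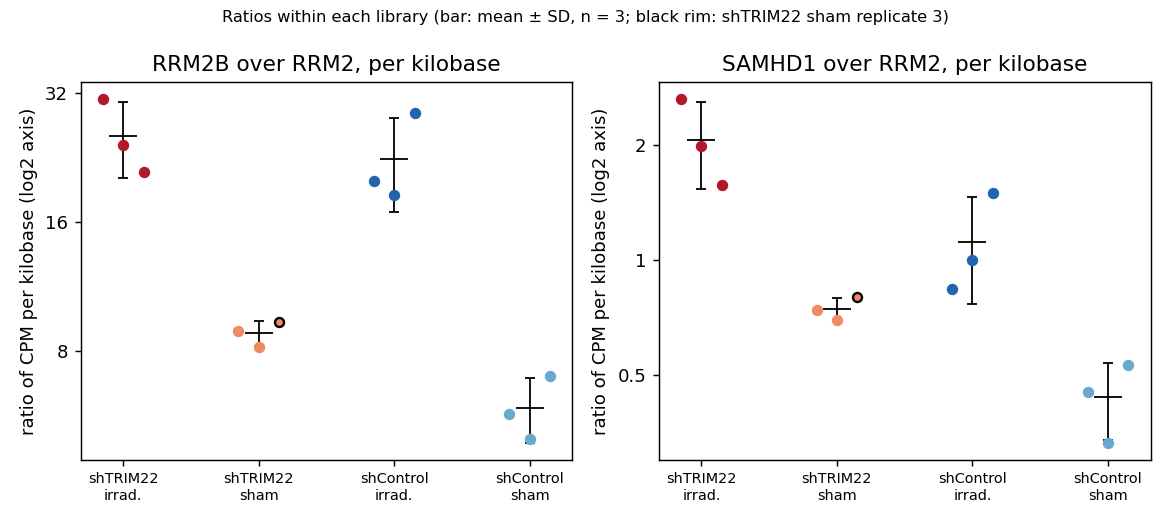
Ratios of CPM per kilobase of RRM2B over RRM2 and of SAMHD1 over RRM2 in every library, by group, on a log2 axis (points are libraries, bars the group mean ± SD, n = 3, and a black rim marks shTRIM22 sham replicate 3). RRM2B over RRM2 lies at 18.6 or above in the 6 irradiated libraries and at 9.36 or below in the 6 sham libraries, and SAMHD1 over RRM2 averages 2.07 in shTRIM22 irradiated cells and 0.439 in shControl sham cells.

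TYMS (ENSG00000176890, chr18:657604-673578, plus strand), the enzyme that makes dTMP and the target of fluoropyrimidine drugs, had irradiation changes of opposite sign in the 2 lines. It had 17.9, 18.4 and 20.1 CPM in shTRIM22 irradiated cells and 25.2, 21.5 and 26.6 CPM in shTRIM22 sham cells. In shControl cells it had 18.2, 16.0 and 16.3 CPM after irradiation and 12.9, 15.7 and 11.3 CPM after sham. Neither pair overlapped, and the irradiated groups, which overlapped each other, lay between the sham groups. The log2 fold change with irradiation was -0.38 ± 0.12 (SE; adjusted p = 0.0265, edgeR) in shTRIM22 cells and 0.34 ± 0.13 (adjusted p = 0.0731, edgeR) in shControl cells. The shControl change passed without shControl sham replicate 2 (0.48, adjusted p = 0.0243) or shTRIM22 sham replicate 3 (0.34, adjusted p = 0.0151), both by edgeR. TYMS was 1.84-fold higher in shTRIM22 than in shControl cells without irradiation (0.88 ± 0.12, adjusted p = 1.93e-05, edgeR) and 0.16 ± 0.12 apart on the log2 scale after it (adjusted p = 0.335, edgeR).

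The TYMS locus is crowded, and the strandedness of the counting is not given in the sources used here. TYMS shares 39.1% of its 2470 exonic bases with ENOSF1 on the opposite strand and 7.41% with TYMSOS, a divergent noncoding RNA. Reads of a shared stretch cannot be told apart without strand. ENOSF1 averaged 52.7 CPM in shTRIM22 irradiated, 45.9 in shTRIM22 sham, 64.4 in shControl irradiated and 64.5 in shControl sham cells. With knockdown it was lower, by -0.49 ± 0.08 without irradiation (adjusted p = 0.000131, edgeR) and by -0.29 ± 0.08 after it (adjusted p = 0.0121, edgeR), the opposite direction to TYMS. With irradiation the ENOSF1 values were 0.20 ± 0.08 in shTRIM22 cells (adjusted p = 0.0848, edgeR) and -0.00 ± 0.08 in shControl cells (adjusted p = 0.989, edgeR). TYMSOS, with 12 to 65 counts, had irradiation values of 0.65 ± 0.26 in shTRIM22 cells (adjusted p = 0.0788, edgeR), where TYMS fell. In shControl cells its value was 1.57 ± 0.27 (adjusted p = 0.00062, edgeR), the same direction as TYMS there (0.34 ± 0.13, adjusted p = 0.0731, edgeR). The part of shared reads in the TYMS values was not tested.

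DUT (ENSG00000128951, chr15:48331011-48343373, plus strand) had 43.9, 45.4 and 51.6 CPM in shTRIM22 irradiated cells and 73.6, 63.8 and 119 CPM in shTRIM22 sham cells. It had 47.5, 45.6 and 43.3 CPM in shControl irradiated cells and 58.5, 56.0 and 53.8 CPM in shControl sham cells. The sham libraries were above the irradiated ones in both lines, and the third shTRIM22 sham library was far above all others. Irradiation lowered DUT in shTRIM22 cells by -0.86 ± 0.18 on the log2 scale (SE; adjusted p = 0.004, edgeR), or -0.55 without that library. The change in shControl cells was -0.30 ± 0.18 (adjusted p = 0.294, edgeR), which passed without it (-0.30, adjusted p = 0.000397). Knockdown without irradiation raised DUT by 0.61 ± 0.18 (adjusted p = 0.0142, edgeR), and by 0.30 without that library, still called.

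DTYMK (ENSG00000168393, chr2:241675742-241686991, minus strand) had 18.4, 18.1 and 22.8 CPM in shTRIM22 irradiated cells and 35.1, 30.1 and 54.3 CPM in shTRIM22 sham cells. It had 19.5, 21.8 and 20.9 CPM in shControl irradiated cells and 28.5, 31.3 and 23.3 CPM in shControl sham cells. As for DUT, the third shTRIM22 sham library was the highest of the 12. Irradiation lowered DTYMK 2.01-fold in shTRIM22 cells (-1.01 ± 0.19 SE, adjusted p = 0.00146, edgeR), which was -0.73 on the log2 scale without that library. In shControl cells the change was -0.41 ± 0.19 (adjusted p = 0.159, edgeR), which passed without it (-0.41, adjusted p = 0.00145). Knockdown without irradiation raised DTYMK by 0.52 ± 0.18 (adjusted p = 0.0298, edgeR), though the groups overlapped. That call was lost without shControl sham replicate 1 (0.55, adjusted p = 0.0607), shControl sham replicate 3 (0.41, adjusted p = 0.118) or shTRIM22 sham replicate 3 (0.24, adjusted p = 0.0574), and with the sham groups fitted alone (0.51, adjusted p = 0.0826), all by edgeR. DUT and DTYMK were each other's nearest of the 9 in pattern, with a root-mean-square difference of 0.127 between centred log2 CPM over 12 libraries. Both were highest in shTRIM22 sham replicate 3, at 119 and 54.3 CPM, and the difference was not computed without that library.

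DCTD (ENSG00000129187, chr4:182890060-182917936, minus strand) was the most even of the 9. It had 83.8, 83.9 and 80.3 CPM in shTRIM22 irradiated cells and 73.0, 73.7 and 71.5 CPM in shTRIM22 sham cells. It had 75.6, 83.8 and 80.9 CPM in shControl irradiated cells and 83.4, 82.9 and 80.3 CPM in shControl sham cells. The 3 shTRIM22 sham libraries were the lowest of the 12. Irradiation raised DCTD in shTRIM22 cells by 0.18 ± 0.06 on the log2 scale (SE; adjusted p = 0.0298, edgeR), and in shControl cells the change was -0.04 ± 0.06 (adjusted p = 0.732, edgeR). Knockdown without irradiation lowered it by -0.18 ± 0.06 (adjusted p = 0.0224, edgeR). That call was lost without shControl sham replicate 1, shControl sham replicate 2 or shTRIM22 sham replicate 1, at adjusted p values up to 0.0711, and with no low-count filter, at 0.0710 (edgeR). The call with irradiation in shTRIM22 cells was also lost with no low-count filter (adjusted p = 0.15) and with the shTRIM22 libraries fitted alone (adjusted p = 0.0881, edgeR).

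TK1 (ENSG00000167900, chr17:78174075-78187233, minus strand) moved furthest. It had 22.2, 23.6 and 28.0 CPM in shTRIM22 irradiated cells and 54.1, 55.4 and 75.2 CPM in shTRIM22 sham cells. It had 14.9, 14.8 and 11.5 CPM in shControl irradiated cells and 23.3, 26.8 and 19.9 CPM in shControl sham cells. Irradiated shTRIM22 cells overlapped sham shControl cells, and every other pair of groups was apart. Irradiation lowered TK1 2.50-fold in shTRIM22 cells (-1.32 ± 0.14 SE, adjusted p = 1.33e-05, edgeR) and 1.71-fold in shControl cells (-0.77 ± 0.16, adjusted p = 0.00283, edgeR). Knockdown raised it 2.64-fold without irradiation (1.40 ± 0.15, adjusted p = 1.33e-06, edgeR) and 1.80-fold after it (0.85 ± 0.16, adjusted p = 0.000575, edgeR). All 4 calls held without shTRIM22 sham replicate 3, where the knockdown value was 1.23 without irradiation and the irradiation value in shTRIM22 cells was -1.16.

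DCK (ENSG00000156136, chr4:70992538-71030914, plus strand), which also activates cytarabine and gemcitabine, followed irradiation and not the hairpin. It had 16.0, 13.6 and 16.9 CPM in shTRIM22 irradiated cells and 26.9, 22.0 and 23.6 CPM in shTRIM22 sham cells. It had 16.1, 14.5 and 15.9 CPM in shControl irradiated cells and 26.2, 23.4 and 19.9 CPM in shControl sham cells. All 6 irradiated libraries lay below all 6 sham libraries. DCK fell by 0.65 ± 0.12 on the log2 scale in shTRIM22 cells (SE; adjusted p = 0.000892, edgeR) and by 0.58 ± 0.12 in shControl cells (adjusted p = 0.00289, edgeR). Between hairpins the differences were 0.06 ± 0.12 without irradiation (adjusted p = 0.676, edgeR) and -0.00 ± 0.12 after it (adjusted p = 0.995, edgeR). Of its exonic bases 6.17% are shared with MOB1B, which was not called in any comparison. The ratio of TK1 to DCK per kilobase was 2.77 ± 0.323 in shTRIM22 irradiated and 4.46 ± 1.02 in shTRIM22 sham cells, and 1.54 ± 0.267 in shControl irradiated and 1.76 ± 0.222 in shControl sham cells.

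SAMHD1 (ENSG00000101347, chr20:36889773-36951901, minus strand) was the 1 gene of the 9 called in all 4 comparisons in the same direction. These comparisons share libraries, so the 4 calls are not independent of each other. It had 32.2, 28.2 and 27.9 CPM in shTRIM22 irradiated cells and 23.0, 21.5 and 20.3 CPM in shTRIM22 sham cells. It had 14.9, 18.3 and 17.7 CPM in shControl irradiated cells and 13.6, 10.9 and 12.0 CPM in shControl sham cells. The 4 groups stood in that order without any overlap. Irradiation raised SAMHD1 1.36-fold in shTRIM22 cells (0.44 ± 0.11 SE, adjusted p = 0.00553, edgeR) and 1.39-fold in shControl cells (0.48 ± 0.12, adjusted p = 0.00777, edgeR). Knockdown raised it 1.78-fold without irradiation (0.83 ± 0.11, adjusted p = 1.54e-05, edgeR) and 1.73-fold after it (0.79 ± 0.11, adjusted p = 2.73e-05, edgeR). The difference between the irradiation changes was -0.03 ± 0.16 (adjusted p = 0.935, edgeR). Set against RRM2 alone of the reductase subunits, SAMHD1 per kilobase was 2.07 ± 0.534 in shTRIM22 irradiated cells and 0.746 ± 0.0517 in shTRIM22 sham cells. In shControl cells this ratio was 1.11 ± 0.346 after irradiation and 0.439 ± 0.100 after sham. RRM2 fell with irradiation, while RRM2B rose by 0.51 in shTRIM22 and 1.06 in shControl cells on the log2 scale. SAMHD1 over RRM2B was not computed.

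The interaction, the irradiation change in shTRIM22 cells minus that in shControl cells, called TYMS alone of the 9, on the lower side, beside 1.09% of all tested genes lower, 0.521% higher and 1.61% in either direction. It was -0.72 ± 0.17 (SE; adjusted p = 0.0482, edgeR) and -0.66 (adjusted p = 0.00556) without shTRIM22 sham replicate 3. The call was close to the threshold and was lost in 13 of 18 alternatives, though the value stayed between -0.86 and -0.61 in all of them. Among the fits that left out a library it held only without shControl sham replicate 2, shTRIM22 sham replicate 2 or shTRIM22 sham replicate 3. Values for DTYMK (-0.60 ± 0.27), DUT (-0.56 ± 0.26) and TK1 (-0.55 ± 0.21) did not pass, with adjusted p of 0.274, 0.291 and 0.2 (edgeR), and were -0.31, -0.25 and -0.39 without the third shTRIM22 sham library. Of all called genes 32.2% were higher in the interaction with TMM scaling, 51.9% with upper-quartile scaling and 44.1% with mitochondrial genes left out.

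**Figure D4:**
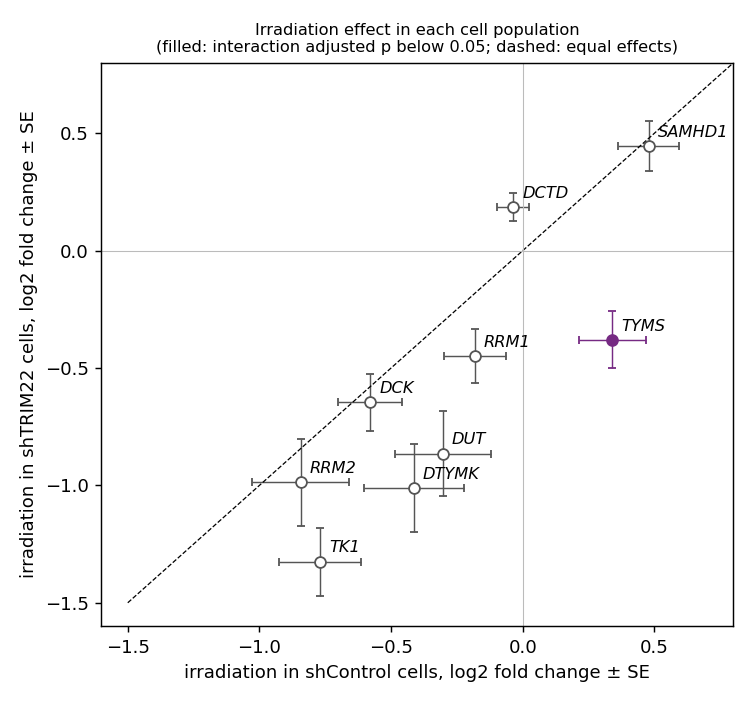
Irradiation effect in shTRIM22 cells (vertical axis) against that in shControl cells (horizontal axis) for the 9 genes, as log2 fold changes ± SE (edgeR, 3 libraries per group), with a dashed line of equal effects and a filled point for an interaction adjusted p below 0.05. TYMS, the filled point, lies at -0.38 in shTRIM22 and 0.34 in shControl cells, and RRM2, DCK and SAMHD1 lie within 1 SE of the line.

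Genes around these enzymes were read from 3 lists: 20 other deoxynucleotide enzymes, 16 enzymes of purine and pyrimidine synthesis, and 16 genes of the DNA polymerases and the replication fork. Fork genes fell with irradiation, 15 of 16 in shTRIM22 cells and 10 of 16 in shControl cells, where PCNA, the sliding clamp, rose by 0.44 (adjusted p = 0.000525, edgeR). Of all genes 14% were lower in shTRIM22 cells and 7.53% in shControl cells. The shControl count of fork genes that moved either way was 8 to 15 over the fits that left out a library, against 11. It was lowest without shControl irradiated replicate 3 and highest without shTRIM22 sham replicate 3. In the latter fit 14 were lower, beside 13.3% of all genes, and 1 was higher, beside 16.8%. MCM7, a subunit of the replicative helicase, fell by 1.21 ± 0.10 on the log2 scale in shTRIM22 cells (adjusted p = 1.65e-06, edgeR), and GINS2, a helicase cofactor, fell by 1.53 ± 0.19 in shControl cells (adjusted p = 2.7e-05, edgeR). The list's median was -0.83 in shTRIM22 cells and -0.50 in shControl cells. Among these genes 13 of 16 rose with knockdown without irradiation, beside 25.4% of all genes higher. MCM2 was at 1.30 ± 0.18 (adjusted p = 7.6e-05, edgeR), or 1.03 without shTRIM22 sham replicate 3. After irradiation MCM2, MCM6 and GINS2 were higher in shTRIM22 cells and PCNA was lower by -0.49 ± 0.07 (adjusted p = 7.24e-05, edgeR), beside 17.6% of all genes higher and 18% lower. Without shTRIM22 sham replicate 3 those counts after irradiation were 8 higher and 2 lower, beside 22.8% and 22.6% of all genes.

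Of the 16 enzymes that build the ribonucleotide precursors, 11 rose with knockdown and IMPDH2 fell without irradiation, and 7 rose and 2, IMPDH2 and GART, fell after it. Of all genes 25.4% were higher and 22.1% lower without irradiation, and 17.6% higher and 18% lower after it. The IMPDH2 call without irradiation was lost with the replicate block, which called 11 higher and 0 lower. It was also lost without shTRIM22 sham replicate 3, where 13 were higher and 0 lower, beside 26.4% and 23.3% of all genes. CAD, which starts pyrimidine synthesis, was 0.78 ± 0.08 higher on the log2 scale without irradiation (adjusted p = 5.96e-07, edgeR), or 0.66 without shTRIM22 sham replicate 3. It was 0.50 ± 0.08 higher after irradiation (adjusted p = 0.000118, edgeR). PPAT, which starts purine synthesis, was 0.80 ± 0.08 and 0.44 ± 0.09 higher in those comparisons (adjusted p = 9.69e-07 and 0.000766, edgeR). With irradiation 10 of 16 fell in shTRIM22 cells and 2 of 16, GMPS and IMPDH2, fell in shControl cells, beside 14% and 7.53% of all genes lower. The IMPDH2 call in shControl cells was lost in 6 of 12 fits that left out a library: any of the shControl sham libraries, shControl irradiated replicates 1 and 2, and shTRIM22 irradiated replicate 2 (adjusted p up to 0.172, edgeR). The shControl count was 6 without shTRIM22 sham replicate 3, all lower, beside 13.3% of all genes lower in that fit. It was 1 to 6 over all fits that left out a library.

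The other deoxynucleotide enzymes were mixed. With irradiation 5 of 20 (RRM2B, DGUOK, GUK1, CDA and PNP) rose and 3, NUDT1 among them, fell in shTRIM22 cells. In shControl cells 2 (RRM2B and PNP) rose and 3, NT5M and NUDT1 among them, fell. These shares lie beside 13.5% of all genes higher and 14% lower in shTRIM22 cells, and 10.6% higher and 7.53% lower in shControl cells. In shControl cells the 3 lower calls were all lost without shControl sham replicate 1 or shControl irradiated replicate 3, and 1 lower call was made without shControl sham replicate 3. NUDT1, which clears oxidised purine nucleotides, fell by 1.01 ± 0.16 in shTRIM22 cells (adjusted p = 0.000211, edgeR). With knockdown 7 rose and 5 (DGUOK, NT5C, NT5M, SHMT2 and TYMP) fell without irradiation, and GUK1 rose and 4 (DGUOK, NT5M, SHMT2 and TYMP) fell after it. Of all genes 25.4% were higher and 22.1% lower without irradiation, and 17.6% higher and 18% lower after it, so the counts of this list lie near the background without irradiation. Genes of these lists beyond the 3 with the smallest p were named after their values were seen. SHMT2, the mitochondrial serine hydroxymethyltransferase, was 4.89-fold lower without irradiation (-2.29 ± 0.12, adjusted p = 6.51e-10, edgeR) and 4.72-fold lower after it (-2.24 ± 0.12, adjusted p = 1.28e-09, edgeR). DGUOK, the mitochondrial deoxyguanosine kinase, was lower by -1.08 ± 0.13 without irradiation (adjusted p = 3.07e-06, edgeR). Without shTRIM22 sham replicate 3 the list had 7 higher and 3 lower with irradiation in shControl cells, beside 16.8% and 13.3% of all genes. With knockdown after irradiation it then had 4 higher and 4 lower, beside 22.8% and 22.6% of all genes.

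Each enzyme was set beside the protein-coding genes of most similar pattern, by the root-mean-square difference of centred log2 CPM over the 12 libraries among 11978 genes. This is a description of level over 4 groups that share libraries. It includes shTRIM22 sham replicate 3 and was not repeated without it. RRM2 was nearest to PLK1 (0.130), BUB1B (0.134) and MKI67 (0.151), genes of mitosis and proliferation. TK1 was nearest to MCM2 (0.109), then UHRF1 (0.195). RRM1 was nearest to SEH1L (0.0782) and MSH6 (0.0825), DUT to EN2 (0.0721) and SNRPB (0.0939), and DTYMK to DUT and DDIT4 (0.147). TYMS was nearest to BAHD1 (0.115) and RNF8 (0.115), DCK to ALG10B (0.0854), DCTD to EIF2S3 (0.0450) and SAMHD1 to SLC35C1 (0.0932). Among the 9 themselves RRM2 and SAMHD1 were far apart, at 0.848, and TK1 and DCTD further, at 0.854.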

How the data were processed

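Poly(A)-selected RNA of A549 cells was sequenced in 12 libraries, and the authors deposited 1 table of raw counts per gene, whose identifiers and coordinates match GENCODE 29 for 58735 of 58735 genes. The submitters' processing notes name hg38 and DESeq2 1.20.0 with no role. The aligner, counter and strand setting were not given in the sources used here. No other per-sample column was used.

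Counts were filtered with filterByExpr (minimum count 10), scaled by TMM and fitted with 1 mean per group over all 12 libraries in edgeR 4.0.16 (R 4.3.3) by the robust quasi-likelihood test, after a test on simulated data. P-values were adjusted by Benjamini-Hochberg over 17094 genes. Standard errors are the log2 fold change over the root of F. Per-kilobase values use the deposited exon length. Same-numbered libraries had deviation correlations of -0.0545 to 0.0942, and numbers were not used as pairs. For irradiation in shControl cells and for knockdown without irradiation, 6 of 6 libraries nevertheless correlated best with their own number. A fit with a replicate block is therefore given among the alternatives. Besides the 9 genes and RRM2B, the rule names up to 3 called genes per list and comparison with the smallest p (others were added after their values were seen), the 3 most similar genes, and overlapping genes. The genes and lists were chosen with earlier results of these data known. Alternatives were DESeq2 1.42.0, other scalings and filters, fewer groups, a replicate block and each library left out, also run on the lists after the data were seen. Promoter sites come from RefSeq GRCh38.p14. Values of some genes of the lists are not reported here.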

Additional observations from a re-analysis of the deposited data

Results flagged for a closer look

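The interaction is the irradiation change in shTRIM22 cells minus that in shControl cells, tested with edgeR. It called 1 of the 9 genes, TYMS, and 1 of the 20 other deoxynucleotide enzymes, RRM2B. Of the 16 purine and pyrimidine enzymes it called 0, and of the 16 fork genes 2, PCNA and MCM4. Of all tested genes 1.61% were called in either direction. PCNA and MCM4 are named because they passed. TYMS was -0.72 on the log2 scale (adjusted p = 0.0482), a call lost in 13 of 18 alternatives and in 9 of the 12 fits that left out a library, with all 3 irradiated shTRIM22 libraries below their sham libraries and all 3 irradiated shControl libraries above theirs. RRM2B was -0.55 (adjusted p = 0.00603), a rise of 0.51 in shTRIM22 cells and of 1.06 in shControl cells. PCNA was -0.57 (adjusted p = 0.00968), and -0.49 to -0.64 over the fits that left out a library, passing in all but 1 of 12, the one without shTRIM22 irradiated replicate 3 (adjusted p = 0.0519). MCM4, a subunit of the replicative helicase, was -0.62 (adjusted p = 0.0078), and passed in all 12 such fits.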

How the results depend on the processing

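Of the alternative values for the 9 genes, 777 kept direction and call, 29 lost the call, 14 gained it and 26 changed sign, all 26 in results near 0 that were not called. With the compared groups alone, irradiation in shControl cells called 8 of the 9 and 5224 of all genes (4 and 3107 otherwise), and irradiation in shTRIM22 cells called 2912 (4702 otherwise). For the interaction, DESeq2 size factors, upper-quartile scaling, leaving out mitochondrial genes and the replicate block each called 0 of the 9 with edgeR. In the main edgeR fit with TMM scaling 5 of the 9 had an unadjusted p below 0.05, and the DESeq2 test called 1. No low-count filter called 3 of the 9 and 754 genes, and DESeq2 called 596 genes, against 276. The replicate block gave TYMS -0.72 (adjusted p = 0.0668), called 4, 9, 7 and 2 of the 9 in the other comparisons as without it, and moved no count of all genes by 1.5 times (229 in the interaction). Every library correlated best with its own number in 2 of the 4 comparisons (6 of 6 libraries) and 2 of 6 did in each of the other two. Leaving out 1 library gave 4 to 8 of the 9 and 2135 to 5260 genes for irradiation in shControl cells, 7 to 9 and 3356 to 5389 for irradiation in shTRIM22 cells, 5 to 7 and 7047 to 8692 for knockdown without irradiation, 2 to 3 and 5009 to 7943 after it, and 0 to 1 and 111 to 1185 for the interaction. Signs turned for RRM2 with knockdown without irradiation under upper-quartile scaling (-0.011), for DCK after irradiation under size factors (0.0047), upper-quartile scaling (0.0044), DESeq2 (0.0056) and without mitochondrial genes (0.0094), and for SAMHD1 in the interaction under upper-quartile scaling (0.019). With a library left out they turned for DCTD under irradiation in shControl cells (-0.070 to 0.0043), for RRM2 (-0.11 to 0.15) and DCK (-0.037 to 0.16) with knockdown without irradiation, for DCK (-0.050 to 0.086), RRM2 (-0.29 to 0.0079) and DUT (-0.0083 to 0.093) after it, and in the interaction for RRM2 (-0.33 to 0.00041), DCK (-0.16 to 0.034) and SAMHD1 (-0.12 to 0.036). Leaving out shTRIM22 sham replicate 3 took the biological variation edgeR estimates to 5.46%, against 9.70% with it. The causes were not tested. Depth limits RRM2 most, with 89 counts in its lowest library.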
